A study of Mus musculus with 4 samples.

Results

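The genes described here are 39 genes that copy DNA in S phase or that E2F transcription factors switch on before it, in mouse mammary tumours that differ in Elf5. They were chosen by symbol from a list, and their rows were found among the 51826 gene identifiers of the deposited count table through the GENCODE annotation of build GRCm38. All 39 were found, and all 39 were among the 21607 genes that had enough counts to be tested. RNA was sequenced from 4 tumours labelled C3-T+. In 2 of them, called WT, both copies of Elf5 are intact (Elf5+/+), and in the other 2, called HET, 1 copy is lost (Elf5+/-). ELF5 is an ETS family regulator that drives the milk-secreting lineage of the mammary gland. The labels do not expand C3-T. In this field the name is used for a transgene in which the C3(1) promoter drives the SV40 T antigens, whose large T protein binds the RB family. The sources used here do not give the age, the strain or the cells that carry the Elf5 deletion. Tumours were digested with collagenase and hyaluronidase, and a sort with antibodies to CD45, CD31 and TER119, which mark leukocytes, endothelial cells and erythroid cells, enriched tumour cells. Both HET titles hold 3211, ending in T1 and T2, whereas the WT titles hold 3210 and 4972. The HET libraries may thus be tumours of 1 animal, and every p-value here reflects nothing beyond the spread among these 4 samples, which may be technical.

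Replication begins when the origin recognition complex, with CDC6 and CDT1, loads the MCM2-7 helicase onto DNA in G1, and geminin blocks CDT1 from doing so again later in the cycle. CDC45 and the GINS complex then join MCM2-7 to form the active CMG helicase, primase and the DNA polymerases start and extend strands, and the PCNA clamp, its RFC loader, FEN1 and DNA ligase 1 finish them. RB proteins hold E2F factors inactive until cyclin-dependent kinases phosphorylate them, and most of the genes here are transcribed as cells leave G1, which is why their RNA is widely used as a measure of proliferation in tumours.

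Totals lay between 12695132 and 15307939 counts. Levels are given as CPM, counts for each 1000000 of the library, scaled between libraries by TMM factors, and always in the order WT 1, the library labelled WT 2, HET 1, HET 2. Elf5 itself was at 35.6, 4.70, 5.39 and 10.6 TMM-scaled CPM in that order, so the library labelled WT 2 lay below both HET libraries. Genes without a count made up 44.5% of that library and 29.9% to 31.3% of the others. All 14 tumour epithelium markers were detected in each library, and their summed level was 4427, 4070, 3287 and 2756 CPM. Sums for the cell types that the sort was to remove, or that it did not mark, were not even: 412, 149, 521 and 397 CPM over 13 leukocyte markers, and 13075, 35655, 8930 and 8761 CPM over 15 fibroblast markers.

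No member passed the test between genotypes, and the members as a group stood slightly lower in HET than the bulk of genes. The log2 fold change (HET divided by WT), from edgeR's quasi-likelihood fit on the whole table, was below 0 for 31 of 39 members, where 47.3% of all genes tested were below 0. Its median was -0.21 over the members and 0.040 over all genes tested. In a fit of protein-coding genes only, these medians were -0.22 and -0.035, and 53.0% of those genes were below 0. In 13 members both HET libraries were lower than both WT libraries, which held for 15.9% of all genes tested. In 2 members, Pola1 and Tyms, both were higher, which held for 19.6% of all genes. No member had a Benjamini-Hochberg adjusted p under 0.05 in edgeR, with 0.986 the lowest, and 0.0% of the genes tested passed. Uhrf1 was the 1 member with an unadjusted p under 0.05, a level that 3.78% of all genes reached. DESeq2 called 0.62% of all genes and no member, and limma-voom called no member. Standard errors of the members' log2 fold changes ran from 0.27 to 0.47. The half-width of a member's 95% interval had a median of 0.78, so differences of the size seen here were not detectable at 2 libraries per genotype.

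**Figure D1:**
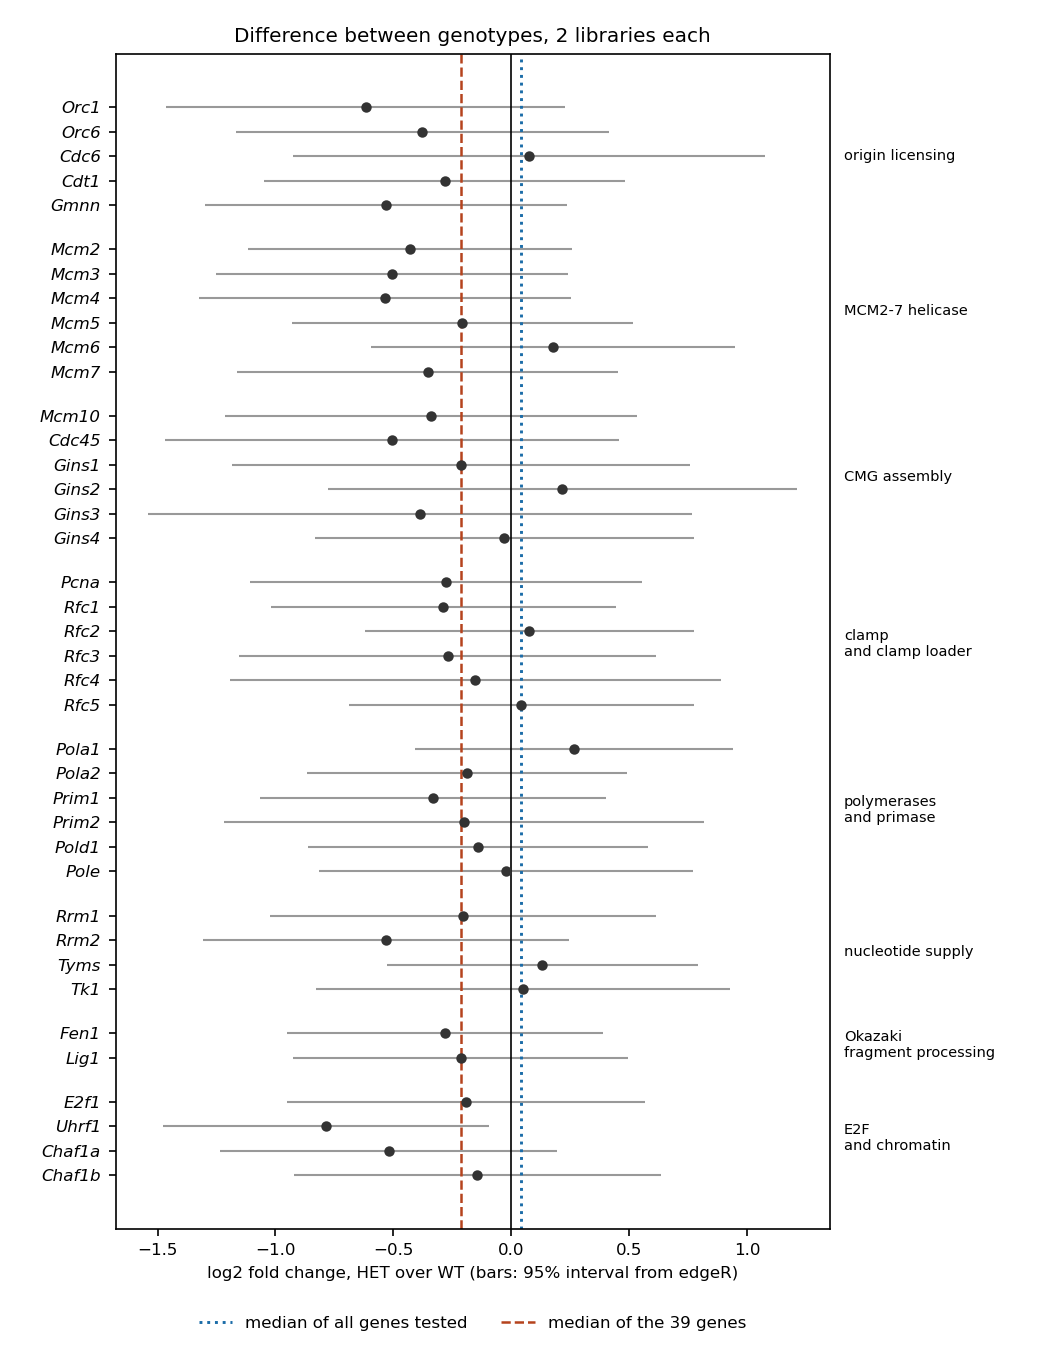
Log2 fold change, HET divided by WT (x axis), for the 39 members (y axis, by role), with 95% intervals from edgeR as bars, the dashed line at the members' median (-0.21) and the dotted line at the median of all genes tested (0.040). Points lie below 0 for 31 of 39 members, and only the interval of Uhrf1 leaves out 0.

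The low values lay mostly in HET 1. It was the lowest of the 4 libraries for 25 of 39 members, against 6 for WT 1, 2 for the library labelled WT 2 and 6 for HET 2. The library labelled WT 2 was the highest for 18 members. Set against HET 1, HET 2 was higher for 31 of 39 members, with a median log2 difference of 0.34 between these libraries of 1 genotype. HET 2 and WT 1 lay close together, with a median of 0.019 and 21 members higher and 18 lower in HET 2. From WT 1 to the library labelled WT 2 the median log2 difference was 0.13. The distance within a genotype was larger than the fold change between genotypes for 18 members within WT and for 22 within HET.

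**Figure D2:**
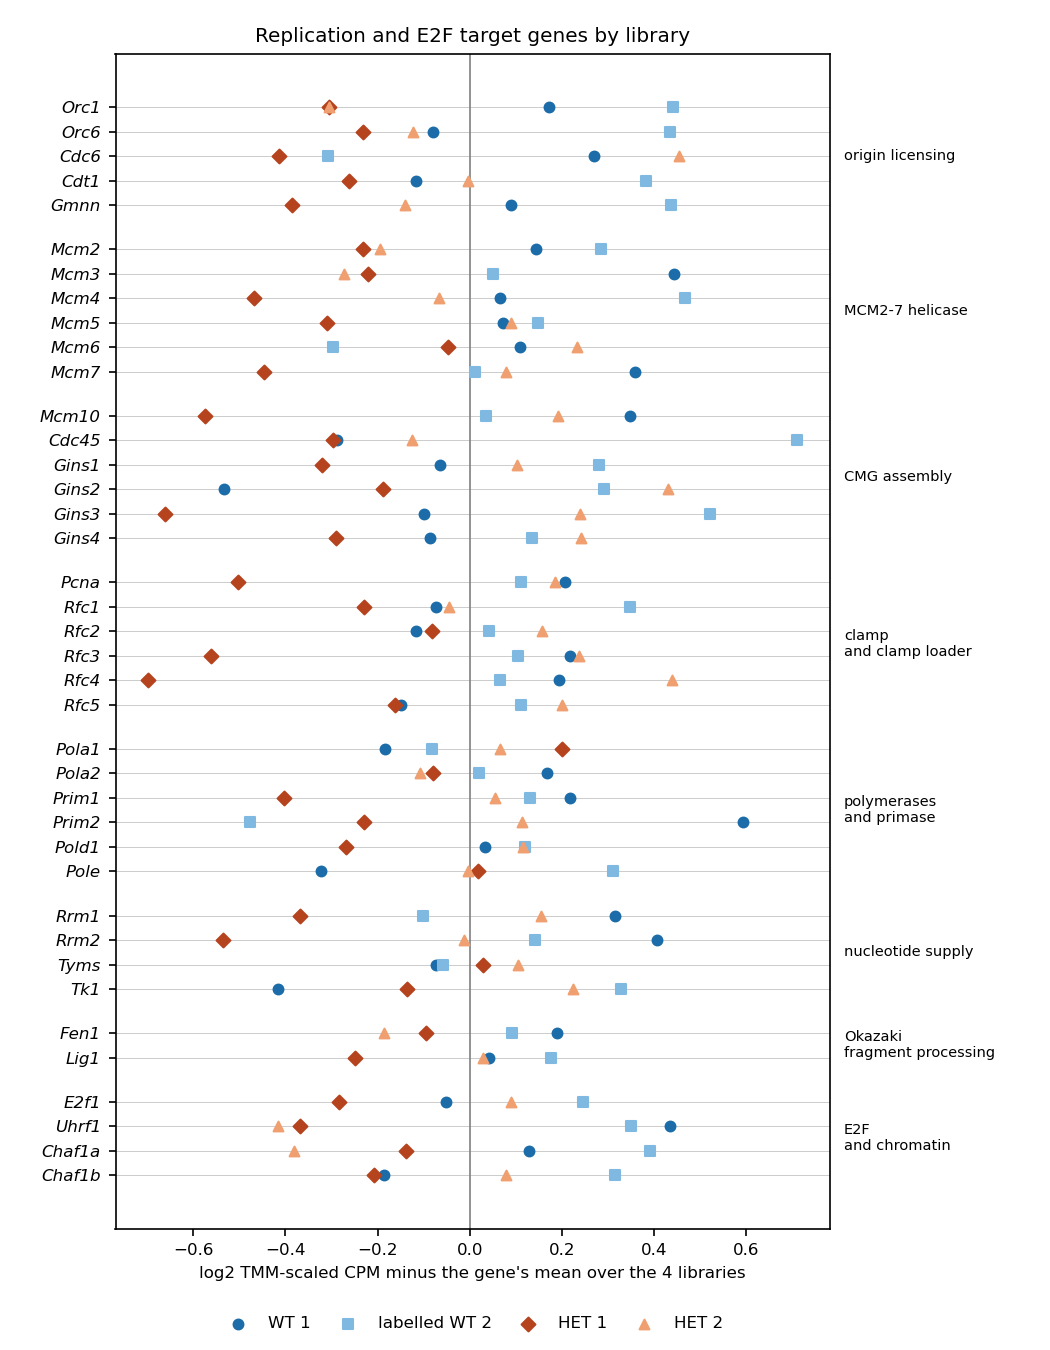
Log2 TMM-scaled CPM of each member (y axis, by role) in each of the 4 libraries, as the difference from that gene's mean over the libraries (x axis). Diamonds of HET 1 lie leftmost for 25 of 39 members, while triangles of HET 2 lie at or above the lower WT symbol for 26 of 39.

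How far the members lay below 0 depended on the scaling. With CPM of library totals, without TMM factors, the median of all genes tested moved from 0.040 to 0.22, and that of the members from -0.21 to -0.036. On that scale 26 of 39 members were below 0 (33.6% of all genes). Orc1, Gmnn, Mcm2, Mcm3, Uhrf1 and Chaf1a were the 6 that were lower in both HET libraries (8.82% of all genes). Rfc2, Pola1 and Tyms were the 3 that were higher in both (28.1% of all genes). Relative to the median of all genes, the members lay at -0.26 with TMM and at -0.25 with library totals, but at -0.064 without HET 1 and at -0.43 without HET 2. Without the library labelled WT 2 the members' median was -0.17 and 29 of 39 were below 0 (48.4% of all genes). Without HET 1 it was -0.078, with 28 below 0 (50.9% of all genes), and without HET 2 it was -0.49, with 37 below 0 (53.5% of all genes). Lower in HET with no overlap were 24 members without WT 1 (33.6% of all genes), 18 without the library labelled WT 2 (33.6%), 15 without HET 1 (29.6%) and 31 without HET 2 (33.3%). Without HET 1 the members' share, 38.5%, was thus near that of all genes.

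**Figure D3:**
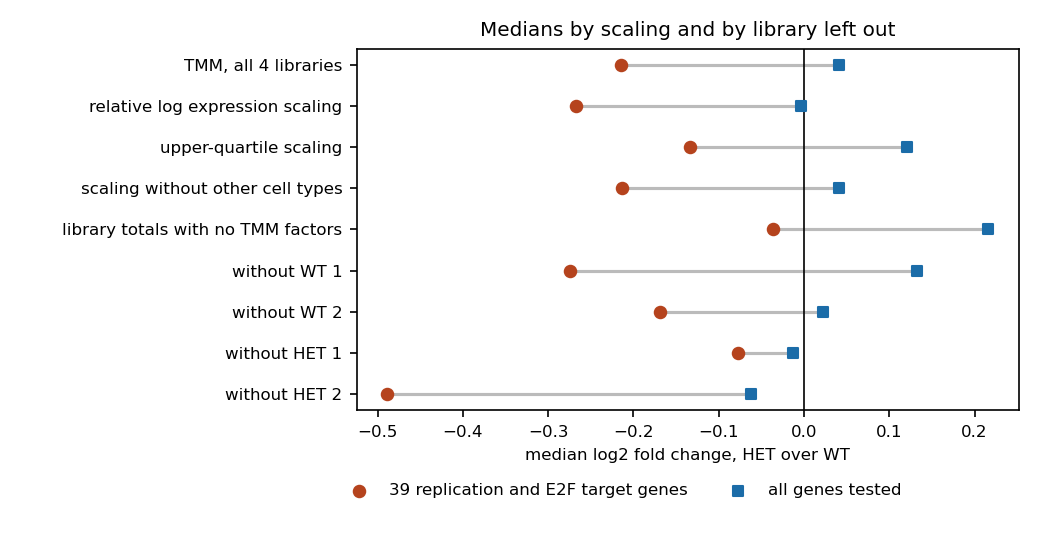
Median log2 fold change, HET divided by WT (x axis), of the 39 members (circles) and of all genes tested (squares) under 5 scalings and without each library in turn (y axis; WT 2 is the library labelled WT 2). The members' median lies left of that of all genes in each of these settings, and the distance is smallest without HET 1.

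The summed level of the 39 members was 3894, 3929, 2953 and 3530 CPM. In this sum both HET libraries lay below both WT libraries. The members' median level was 50.6, 54.0, 42.6 and 54.7 CPM, with HET 2 the highest, so by medians the genotypes overlapped. With library totals the sums were 3722, 3603, 3120 and 3747 CPM, and the genotypes overlapped. Markers of other cell types differed over the same libraries: 12 of 13 leukocyte markers, 16 of 16 macrophage markers, all 11 tested of 14 T and NK cell markers and 11 of 12 endothelial markers had a log2 fold change above 0, while 0 of 15 fibroblast markers and 3 of 14 tumour epithelium markers did. Macrophage markers summed to 1243, 54.6, 1392 and 799.9 CPM, T and NK cell markers to 26.6, 12.04, 58.8 and 75.6 CPM, and endothelial markers to 490.3, 266, 529.7 and 679 CPM. In the library labelled WT 2 Cldn5, an endothelial gene, was at 0, as were Nkg7, Gzma and Klrd1, which mark T and NK cells. Of these, 1 was at 0 in HET 2 too. The 7 erythroid markers summed to 6.60, 2.07, 6.17 and 16.1 CPM, with 3 tested and all of these above 0. These lists' part in the members' values was not tested. In bulk RNA, fewer cycling cells and less RNA of these genes per cell cannot be told apart.

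E2f1 (chr2:154559407-154569892, minus strand, GRCm38), the best known activator of the family, was at 33.0, 40.5, 28.1 and 36.4 CPM, with a log2 fold change of -0.19 ± 0.31 (SE). The genotypes overlapped. Uhrf1 (chr17:56303321-56323486, plus strand, GRCm38) encodes the protein that brings the DNA methyltransferase DNMT1 to newly copied DNA. It was at 299, 281, 171 and 166 CPM, so both HET libraries lay well below both WT libraries. Its log2 fold change was -0.78 ± 0.28 (SE), with a 95% interval of -1.47 to -0.094, an unadjusted p of 0.0319 and an adjusted p of 0.986 in edgeR. With library totals Uhrf1 was at 285, 258, 181 and 176 CPM and still separated, at a log2 fold change of -0.61, and leaving out each library in turn gave -0.86 to -0.74. Chaf1a, the large subunit of the chromatin assembly factor that places histones behind the fork, was at 173, 207, 143 and 121 CPM, lower in both HET libraries, with a log2 fold change of -0.52 ± 0.29. Its exons share 4648 bases with those of Ubxn6 on the opposite strand. Whether the library preparation kept strand is not given in the sources used here, so reads of both genes cannot be told apart there. Chaf1b, its partner subunit, overlapped between genotypes, with a log2 fold change of -0.14.

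Promoter sequence was read for the members from RefSeq (GRCm38.p6), as windows of 250 bases before to 50 after each gene's start. Windows were found for 31 of 39 members. There were none for Gmnn, Mcm4, Gins1, Gins2, Gins4, Rfc2, Prim2 and Pole. The E2F letters searched were TTTCCCGC, TTTCGCGC, TTTGCCGC and TTTGGCGC on both strands, with overlapping matches counted. Shown first are 80-base stretches for 5 members with these letters before the RefSeq start. They are Uhrf1, Orc1, Pola1 and Mcm5, taken in order of unadjusted p, and Mcm6, chosen after its values were seen. Mcm7, Gins3 and Rfc3, whose unadjusted p is smaller than that of Mcm5, are left out because over 30 bases of their stretch lie in annotated exons. Capitals mark the letters, on either strand. The last 18 bases of the Orc1 stretch and 13 bases of the Rrm2 stretch lie in annotated exons of these genes. The marked Orc1 letters are among those 18 bases, so they precede the RefSeq start but not the GENCODE start. The Uhrf1 stretch precedes the RefSeq start but lies inside the longer GENCODE gene, in no annotated exon.
Uhrf1, chr17:56304063-56304142, plus strand: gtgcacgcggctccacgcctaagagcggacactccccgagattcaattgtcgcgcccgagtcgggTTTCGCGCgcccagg
Orc1, chr4:108579361-108579440, plus strand: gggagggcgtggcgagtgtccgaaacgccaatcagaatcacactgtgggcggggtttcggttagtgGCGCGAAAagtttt
Pola1, chrX:93632280-93632359, minus strand: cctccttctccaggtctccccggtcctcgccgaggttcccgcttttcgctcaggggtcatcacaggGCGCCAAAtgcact
Mcm5, chr8:75109294-75109373, plus strand: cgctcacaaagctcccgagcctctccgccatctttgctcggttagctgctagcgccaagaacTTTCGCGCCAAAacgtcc
Mcm6, chr1:128359739-128359818, minus strand: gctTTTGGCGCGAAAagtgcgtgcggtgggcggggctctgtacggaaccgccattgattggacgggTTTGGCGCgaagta
The Mcm6 stretch holds 3 matches, of which the leading pair overlap, and the Mcm5 stretch holds 2 overlapping matches. For comparison, the 80 bases before the start of Chaf1a and Rrm2 are shown, the 2 members of smallest unadjusted p among those without the letters in their window.
Chaf1a, chr17:56040336-56040415, plus strand: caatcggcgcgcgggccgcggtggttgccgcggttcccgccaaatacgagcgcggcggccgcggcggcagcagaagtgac
Rrm2, chr12:24708174-24708253, plus strand: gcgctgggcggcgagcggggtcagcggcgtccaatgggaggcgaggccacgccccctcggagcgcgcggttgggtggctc

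E2F letters were in the windows of 13 of 31 members (41.9%), and before the RefSeq start in 9 of 31 (29.0%). Over all 27025 genes with a RefSeq window the shares were 2.605% and 2.16%. The 13 members were Orc1, Cdc6, Cdt1, Mcm3, Mcm5, Mcm6, Mcm7, Gins3, Rfc3, Pola1, Pold1, Lig1 and Uhrf1. Their median log2 fold change was -0.27, with 10 of 13 below 0 and 4 lower in both HET libraries. The 18 members with a window and no such letters had a median of -0.28, with 15 below 0 and 7 lower in both HET libraries, so both medians were close. Over all genes tested, 47.3% were below 0 and 15.9% lower in both HET libraries. The letters TTTGAA and TTCGAA, the CHR element of late cell cycle genes, searched on both strands, were in 6 of 31 members (19.4%) and in 21.7% of all genes. In 37 mitosis genes with a window they were in 28 (75.7%), and the E2F letters in 1. CCAAT, the NF-Y letters, searched on both strands, was in 19 of 31 members (61.3%) and in 41.1% of all genes. A match says only that the letters are there, and near matches were not counted.

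**Figure D4:**
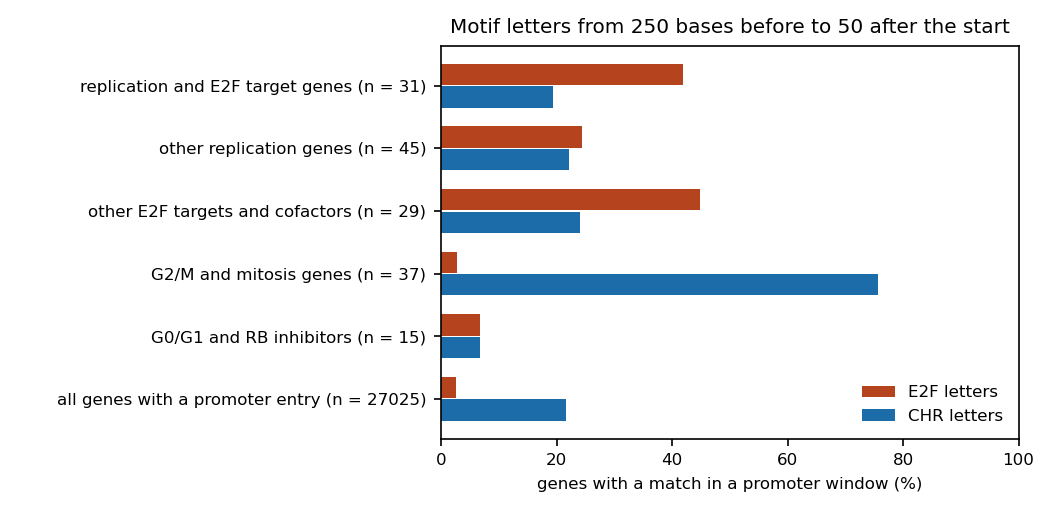
Share of genes with a RefSeq promoter window (x axis, percent) that holds the E2F letters or the CHR letters, for the members and for the other gene lists (y axis, with the number of genes that had a window). The members stand at 41.9% for E2F letters and 19.4% for CHR letters, against 2.605% and 21.7% of all genes.

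Among the 5 origin licensing genes, 4 had a log2 fold change below 0 (47.3% of all genes tested). Lower in both HET libraries were 3 (15.9% of all genes). Orc1, the subunit of the origin recognition complex that is made anew in each cycle, was at 17.98, 21.7, 12.9 and 12.9 CPM, both HET libraries being nearly equal and below both WT libraries. Its log2 fold change was -0.62 ± 0.35 (unadjusted p = 0.125, edgeR), and its promoter stretch, shown above, holds 1 match on the opposite strand. Gmnn, which encodes geminin, was at 29.4, 37.4, 21.2 and 25.1 CPM, also lower in both HET libraries, with a log2 fold change of -0.53 ± 0.31. Orc6, another subunit of the complex, was lower in both HET libraries as well, at -0.38, but overlapped with library totals. Cdt1, the loader that geminin binds, overlapped between genotypes. The ratio of Cdt1 to Gmnn counts, which no scaling touches, was 1.74, 1.93, 2.18 and 2.20, higher in both HET libraries. Of 83 pairs of members within a role, 30 (36.1%) did not overlap between genotypes. Cdc6 ranged from 23.4 to 42.7 CPM, both ends being HET libraries.

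The 6 subunits of the MCM2-7 ring summed to 1496, 1384, 1070 and 1265 CPM, lower in both HET libraries. With library totals the sums were 1430, 1269, 1130 and 1343 CPM and overlapped. The median log2 fold change of the subunits was -0.39, and 5 of 6 were below 0 (47.3% of all genes tested). Mcm2 was at 227, 249.9, 175 and 179 CPM, Mcm3 at 378, 288, 239 and 230.1 CPM and Mcm4 at 217, 286, 149.8 and 198 CPM. Their log2 fold changes were -0.43 ± 0.28, -0.51 ± 0.31 and -0.53 ± 0.32. In all of these both HET libraries lay below both WT libraries (15.9% of all genes tested). With library totals only Mcm2 and Mcm3 kept that separation (8.82% of all genes). Mcm5 was at 143, 151, 110.1 and 145 CPM (-0.21 ± 0.30) and Mcm7 at 246, 193, 141 and 202 CPM (-0.35 ± 0.33), and in both the genotypes overlapped. Mcm6 (chr1:128331590-128359664, minus strand, GRCm38) was the subunit above 0, at 285, 215, 256 and 311 CPM and a log2 fold change of 0.18 ± 0.32. Its genotypes overlapped, and its sign turned without the library labelled WT 2 (-0.00995) and without HET 2 (-0.026).

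The subunits form a ring with 1 copy of each, so their balance within a library was also taken, a measure chosen after the data were seen. The log2 count of Mcm6 minus the mean of the other 5 subunits was 0.31, -0.077, 0.70 and 0.72, higher in both HET libraries by a mean of 0.59. For each of the other 5 subunits the genotypes overlapped. The ratio of Mcm3 to Mcm6 counts was 1.32, 1.34, 0.934 and 0.741, and that of Mcm6 to Mcm7 was 1.16, 1.11, 1.82 and 1.53. Mcm3 thus outnumbered Mcm6 in both WT libraries and was below it in both HET libraries. All 5 ratios with Mcm6 and that of Mcm4 to Mcm5 did not overlap between genotypes, which is 6 of 15 pairs of subunits (40.0%). Over all 741 pairs of members 33.1% did not overlap, so the MCM share is near that of any pair. Pairs with Uhrf1 did not overlap in 28 of 38 cases (73.7%), those with Pola1 in 23 (60.5%) and those with Mcm6 in 19. Pairs that hold the same gene are not independent.

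**Figure D5:**
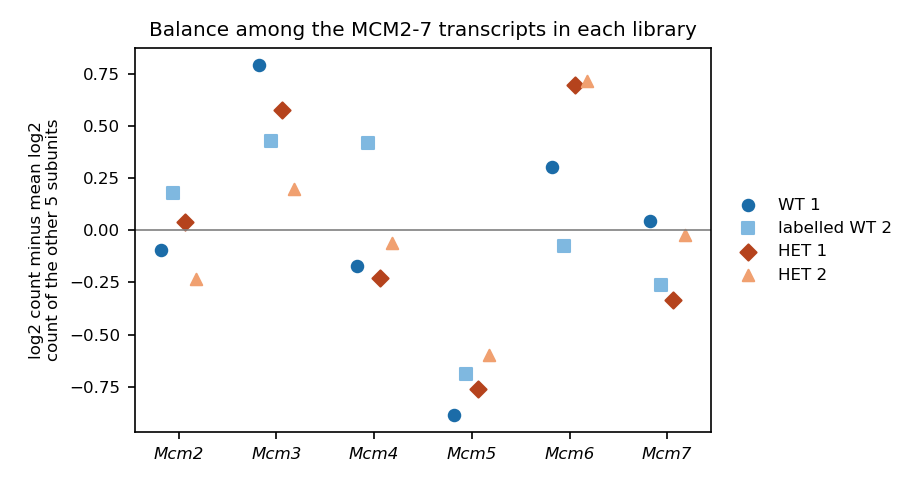
Log2 count of each MCM2-7 subunit (x axis) minus the mean log2 count of the other 5 subunits in the same library (y axis), 1 symbol per library. For Mcm6 both HET libraries (0.70 and 0.72) lie above both WT libraries (0.31 and -0.077), and the other subunits overlap.

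The 6 genes that turn the loaded ring into the active helicase showed no separation. Over all genes tested, 15.9% were lower and 19.6% higher in both HET libraries. Of the 6 helicase genes, 5 had a log2 fold change below 0 (47.3% of all genes tested), and their median was -0.28. Mcm10, which acts in helicase activation, was at 64.8, 52.2, 34.2 and 58.1 CPM (-0.34 ± 0.36), with HET 1 low and HET 2 between the WT libraries. Cdc45 was at 44.5, 89.0, 44.3 and 49.9 CPM. Only the library labelled WT 2 stood out, and without it the log2 fold change of Cdc45 went from -0.50 to 0.079. Exons of Cdc45 share 209 bases with Ufd1 on the opposite strand, which had 456, 1189, 729 and 844 counts. Any part of Ufd1 reads in the Cdc45 values was not tested. Gins4 was at 29.0, 33.8, 25.2 and 36.4 CPM (-0.029 ± 0.33), and HET 2 was the highest library. Its fold change was above 0 with library totals (0.15). The other GINS subunits had log2 fold changes of -0.21 for Gins1, 0.22 for Gins2 and -0.39 for Gins3. These 4 proteins form 1 complex, yet their fold changes had no common sign. Exons of Gins2 share 2758 bases with Gse1 on the opposite strand.

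No member of the clamp and clamp loader group separated the genotypes either. Of all genes tested, 15.9% were lower and 19.6% higher in both HET libraries. The median log2 fold change over these 6 clamp and loader genes was -0.21, and 0.040 over all genes tested. Pcna, the sliding clamp, was at 207, 194, 127 and 204 CPM (-0.28 ± 0.34). HET 1 stood apart below the other 3 libraries, which were close to each other. The processed pseudogenes Pcna-ps2 and Pcna-ps1 held at most 30 counts in a library. Rfc1, the large subunit of the loader, was at 87.1, 117, 78.2 and 88.8 CPM (-0.29 ± 0.30), with HET 2 just above WT 1. Rfc3 and Rfc4 had their lowest level in HET 1 and their highest in HET 2. Rfc2 and Rfc5 had log2 fold changes of 0.077 and 0.043.

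Polymerase and primase genes had a median log2 fold change of -0.16, with 5 of 6 below 0 (47.3% of all genes tested). Pola1 (chrX:93304767-93632155, minus strand, GRCm38), the catalytic subunit of polymerase alpha, went the other way, at 118, 126, 153 and 139.6 CPM. Both HET libraries lay above both WT libraries, with a log2 fold change of 0.27 ± 0.28, a 95% interval of -0.41 to 0.94 and an unadjusted p of 0.372 in edgeR. Pola2, its accessory subunit, was lower in both HET libraries (-0.19). The ratio of Pola1 to Pola2 counts was 2.70, 3.199, 4.17 and 3.87, higher in both HET libraries. Of all pairs within a role, 36.1% did not overlap. Prim1, the catalytic primase subunit, was at 61.3, 57.7, 39.9 and 54.8 CPM (-0.33 ± 0.30), lower in both HET libraries, and Prim2, its partner, overlapped (-0.20). With library totals Pola2 and Prim1 overlapped too. For the polymerases that extend the strands, log2 fold changes were -0.14 for Pold1 and -0.022 for Pole, and the genotypes overlapped.

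Of the 4 genes of nucleotide supply, 2 were below 0 (47.3% of all genes tested). Rrm2, the subunit of ribonucleotide reductase whose level follows S phase, was at 67.8, 56.4, 35.3 and 50.7 CPM (-0.53 ± 0.32), lower in both HET libraries. With library totals Rrm2 overlapped between genotypes, at 64.8, 51.7, 37.3 and 53.8 CPM. Rrm1, the large subunit, was at 208, 156, 129.8 and 187 CPM (-0.20 ± 0.34) and overlapped, with its sign turned without WT 1 (0.018). The ratio of Rrm1 to Rrm2 counts was 3.08, 2.77, 3.68 and 3.68, higher in both HET libraries (36.1% of pairs within a role did not overlap). Tk1, the salvage enzyme thymidine kinase, was at 35.1, 58.8, 42.6 and 54.6 CPM (0.050 ± 0.36), with both ends of the range in WT and the sign turned under relative log expression scaling (-0.013). Tyms, thymidylate synthase, was at 50.4, 50.9, 54.1 and 57.0 CPM, higher in both HET libraries by a log2 fold change of 0.13 ± 0.27. In the group that processes Okazaki fragments, the nuclease gene Fen1 was at 50.6, 47.2, 41.5 and 38.96 CPM (-0.28 ± 0.28) and the ligase gene Lig1 at 215, 236, 176 and 213 CPM (-0.21 ± 0.29). Both were lower in both HET libraries with TMM (15.9% of all genes tested), Lig1 by a narrow gap, and with library totals neither was. Fen1 exons share 1909 bases with Gm10143 on the opposite strand, and 13 members in all have such an overlap.

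Per kilobase of principal transcript, averaged over the libraries, Pcna was the most abundant member, at 120.5 CPM per kb, followed by Mcm3 (93.6), Mcm6 (91.6), Lig1 (66.1), Mcm7 (66.01), Uhrf1 (63.9) and Mcm2 (61.6). On this scale Pcna was at 136, 128, 83.4 and 134, Mcm3 at 125, 95.03, 78.8 and 75.9 and Mcm6 at 98.0, 73.9, 87.9 and 107 in the 4 libraries. Throughout the order, the ranges of neighbours over the libraries overlapped. The lowest levels were those of Orc1 (5.43), Gins3 (5.58), Rfc2 (7.97) and Gins2 (8.28). The lowest ring subunit, Mcm5 (40.7), was above the highest gene of origin licensing or helicase assembly, Cdc45 (26.6). In counts the members ranged from 131 (Gins3 in HET 1) to 4750 (Mcm3 in WT 1).

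Other genes of the same pathways lay about as far below 0 as the members. Over all genes tested, 47.3% were below 0, 15.9% lower and 19.6% higher in both HET libraries. Of 54 other replication genes, 34 were below 0 with a median of -0.16, 13 were lower and 4 higher in both HET libraries, and 0 passed. Pole2, the accessory subunit of polymerase epsilon, had the smallest unadjusted p of them, at 16.9, 18.2, 7.79 and 9.13 CPM (-1.05 ± 0.38; unadjusted p = 0.0308, edgeR). Dbf4, which activates the kinase that fires origins, was at 56.1, 68.4, 40.6 and 41.5 CPM (-0.60 ± 0.28). In both genes both HET libraries were lower. Of 42 other E2F targets and cofactors, 32 were below 0 with a median of -0.26, 13 were lower and 2 higher in both HET libraries, and 0 passed. Rbl2 was among those higher, at 22.4, 28.0, 42 and 46.5 CPM (0.81 ± 0.30). It encodes p130, the RB family protein that with E2F4 keeps these genes silent in resting cells. Cbx5, which encodes the heterochromatin protein HP1 alpha, was at 231, 171, 116 and 119 CPM (-0.78 ± 0.30), lower in both HET libraries. With library totals the medians were 0.019 for other replication genes and -0.078 for other E2F targets. Then 4 of 54 and 8 of 42 were lower in both HET libraries, against 8.82% of all genes.

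Of 45 G2/M and mitosis genes, 34 were below 0 with a median of -0.20, 14 were lower and 3 higher in both HET libraries, and 0 passed. Over all genes tested these shares were 47.3% below 0, 15.9% lower and 19.6% higher. Cks2, a small partner of cyclin-dependent kinases, was at 21.8, 26.2, 9.22 and 11.9 CPM (-1.19 ± 0.36), and Ccnb1, cyclin B1, at 89.9, 71.7, 40.0 and 55.6 CPM (-0.76 ± 0.32). Both were lower in both HET libraries. Of 18 genes of G0, G1 and RB control, 15 were below 0 with a median of -0.26. In both HET libraries 5 were lower and 2 higher, and 0 passed in the edgeR fit on the whole table. With DESeq2, 1 of the 18 genes passed (0.62% of all genes), lower in HET. With no filter beyond 1 count, 1 passed (324 of 43097 genes), also lower in HET. Cdk6, a G1 kinase that phosphorylates RB, was at 64.1, 71.2, 24.1 and 20.9 CPM (-1.58 ± 0.29; unadjusted p = 0.00147, adjusted p = 0.986, edgeR), and Cdk4, its relative, at 74.5, 55.8, 28.6 and 54.1 CPM (-0.66 ± 0.40). Both HET libraries were lower in each with TMM, for Cdk4 by a narrow gap that did not hold with library totals. The log2 ratio of the members' sum to the sum of mitosis genes was -0.30, -0.24, -0.44 and -0.33, lower in both HET libraries by 0.11 on average (exact two-sided permutation p = 0.333, the smallest that 2 against 2 libraries allow). With medians in place of sums it was -0.53, -0.32, -0.21 and -0.16, higher in both HET libraries, so the direction depended on the summary. Against the summed tumour epithelium markers the log2 ratio of the members was -0.19, -0.051, -0.15 and 0.36, and the genotypes overlapped.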

How the data were processed

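Estimated counts per gene were deposited by the authors as whole numbers. Per the submitters' processing notes, Salmon was run on GRCm38.p5. Not given in the sources used here are its version, the annotation and whether strand was kept. Of 51826 identifiers, 51633 matched the GENCODE annotation used for symbols, 47648 with the same version, and 193 had no symbol. Rows without a gene numbered 0, as did columns from other samples.

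The genotypes were compared using edgeR 4.0.16 under R 4.3.3 with the filter of filterByExpr, TMM scaling and the quasi-likelihood F test, genotype being the only term. Residual degrees of freedom were 2 and prior ones 4.08, at a biological coefficient of variation of 0.46. P-values were adjusted by Benjamini-Hochberg over 21607 genes, with a threshold of 0.05. Groups came from the genotype label. Counts of every pair of libraries differed by more than sampling noise (chi-square per degree of freedom from 35.7 to 91.9). A count of 0 allows up to 3 counts, or 0.196 to 0.236 CPM, which covers counting error only. An exact permutation test of a single value cannot go below 0.333. Differences between libraries used a pseudocount of 0.1 CPM.

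The members and lists were chosen with earlier results of these data known. Named in full were all MCM2-7 subunits, E2f1, Pcna, Rrm2, Tk1 and, in each of the 8 roles, the 2 members of smallest unadjusted p and the most abundant per kb of exon. From each other list the 2 genes of smallest unadjusted p were named. Other members were added after their values were seen. Alternatives were library totals, relative log expression and upper-quartile scaling, scaling without other cell types, no filter beyond 1 count, a filter of 1 CPM in 2 libraries, protein-coding genes only, DESeq2 1.42.0, limma-voom (limma 3.58.1), robust edgeR and leaving out each library. Ratios between members, levels per transcript length and medians relative to all genes were added after the data were seen. The edgeR fit was tested on simulated data.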

Additional observations from a re-analysis of the deposited data

How the results depend on the processing

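The number of genes called over the whole table was 0 with all 4 libraries in edgeR (817 at an unadjusted p under 0.05). It was 324 with no filter beyond 1 count, 134 with DESeq2, and between 0 and 657 when a library was left out (657 without WT 1, 9 without the library labelled WT 2). These fits take the spread of the single remaining library from the other genotype. No member was called under any of these, and the lowest adjusted p of a named member was 0.175. The count of members lower in both HET libraries was 13, 6 with library totals, and 15 to 31 when a library was left out (24 without WT 1, 31 without HET 2). Over all genes tested the share was 15.9%, 8.82% with library totals, and between 29.6% and 33.6% when a library was left out. Relative to the median of all genes, the members' median was -0.26 with all libraries, -0.18 with protein-coding genes only, -0.0645 without HET 1 and -0.43 without HET 2. The members' median stayed below 0 in every alternative run and was -0.489 to -0.0776 when a library was left out. The median of other replication genes was 0.0185 with library totals and -0.334 to -0.0726 with a library left out. That of mitosis genes was -0.0248 and -0.444 to -0.0685. The ratio of members to mitosis genes was 0.25 with medians in place of sums. Of 23 named members, 18 had the same direction in each of 14 alternatives, and 13 of 322 values had the opposite one. Gins4 was at 0.15 with library totals and 0.0498 with upper-quartile scaling, and Tk1 at -0.0127 with relative log expression scaling, -0.0581 with no filter and -0.0128 with DESeq2. With a library left out, Mcm6 lay between -0.0256 and 0.396, Cdc45 between -0.918 and 0.0793, Gins4 between -0.39 and 0.15, Rrm1 between -0.548 and 0.0182, and Tk1 between -0.27 and 0.47. The cause of these shifts was not tested. No paired analysis was possible because the labels give no number that ties a WT library to a HET library.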
